A study of Mus musculus with 12 samples.

Results

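Wild-type mouse liver without added selenium was set against wild-type liver at 0.1 ppm selenium, over the 23 selenoprotein genes in the deposited tables. The comparison uses 4 of the 12 libraries of the study: a ribosome footprint library and a total mRNA library from FVB/N mice on each of the 2 diets, which were fed for 6 weeks. The labels give an age of 3 weeks, which is shorter than the feeding, so the age at which livers were taken is unclear. The other libraries come from the wild-type diet with 2.0 ppm and from mice with a transgene for a mutant selenocysteine tRNA, TrspA37G, at 20 copies by the labels. Each group has 1 library, so variation between mice is not measured and no test across mice could be made. Mapped reads were 23945053 and 30296837 for footprints at 0 and 0.1 ppm, and 16709701 and 14220047 for mRNA.

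Selenocysteine is built into a selenoprotein at a UGA codon, which is otherwise a stop signal. A dedicated tRNA and a structure in the mRNA let the ribosome pass that codon. A ribosome that stops there leaves footprints 5' of the UGA and none 3' of it. When selenium is short, some selenoproteins are known to be kept at the cost of others, and part of this order lies in mRNA levels, since an mRNA with a stop codon ahead of an exon junction can be degraded. For each gene, 4 measures were therefore placed side by side: mRNA, footprints 5' of the UGA, footprints 3' of it, and the 3' to 5' ratio of footprint density within a library, called the 3'/5' ratio below.

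The bases around the UGA are shown for the 8 genes whose 3'/5' ratio was lower without selenium, from the most to the least lowered, and for Seli, which was compared but not called. They were taken from the GENCODE M21 transcripts (build GRCm38), 5′ to 3′ on the mRNA strand, with the UGA in capitals as TGA.
Sepx1: ggacaatcaagattcTGAatatttagcagc
Gpx1: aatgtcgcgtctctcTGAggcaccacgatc
Sephs2: tccggcatgaagggcTGAggctgcaaggtc
Sep15: cttgaagtctgcggaTGAaaattggggagg
Gpx4: aacgtggcctcgcaaTGAggcaaaactgac
Sepp1: cttcttcaagccagcTGAtacttgtgtctt
Dio1: tttggcagttgcaccTGAccttcatttctt
Selt: cagatttgtgtatccTGAgggtaccggcgg
Seli: aaaccaaactcagatTGActaggaatggaa

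On GRCm38 the UGA of Sepx1 (current symbol Msrb1) lies at chr17:24740158-24740160 on the plus strand, in exon 3 of 5, and is codon 95 of 116. In Gpx1 it lies at chr9:108339451-108339453 on the plus strand, in exon 1 of 2, and is codon 47 of 201. For Sephs2 the place is chr7:127273731-127273733 on the minus strand, codon 63 of 452 in a gene of 1 exon. Sepp1 (Selenop) has 10 such codons, of which the first, codon 59 of 380, lies at chr15:3274848-3274850 on the plus strand, and the windows are cut at this first codon. In Seli (Selenoi) the UGA is codon 388 of 398 at chr5:30266964-30266966 on the plus strand, so that its 3' window is short. The sequences thus come from coding exons at very different distances from the stop codon.

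Levels are given as RPKM for mRNA and RPFKM for footprints, both meaning reads per 1000000 mapped reads and per kilobase of the region. A gene was compared where each region held at least 10 reads over both libraries and at least 1 in each. It was called lower or higher where its values differed at least 1.5-fold and the 95% interval from the reads excluded equality. These intervals cover counting error only. A 5' value was there for 19 genes that could be compared, and a 3' value for 13, because the 3' side of the UGA in Txnrd1, Txnrd2, Txnrd3, Selk, Sels and Selo falls into the last codons left out of the windows, and the 5' side in Sepw1 into the first ones. Dio2, Dio3 and Gpx2 held too few reads in every measure, and Sepn1 too few 3' of its UGA.

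The mRNAs of 4 of 20 genes compared (20%) were lower at 0 ppm and none was higher. As the tables hold selenoprotein genes alone, this share and those given below are also the background rates. The median log2 change over the 20 genes was -0.24. Sepw1, a small thioredoxin-fold protein, stood at 13.8 RPKM without selenium and 41.9 at 0.1 ppm, 3.04-fold lower. Gpx1, the cytosolic glutathione peroxidase that removes hydrogen peroxide, stood at 893 and 2327 RPKM, 2.61-fold lower. The nuclear thioredoxin-fold protein Selh stood at 1.80 and 4.44 RPKM, from 21 and 44 reads, 2.46-fold lower. The thioredoxin reductase Txnrd3 stood at 2.57 and 4.02 RPKM, 1.56-fold lower. The lowered mRNAs thus include an abundant one and 3 at low or middle levels. In whole liver, fewer cells of a type and less RNA per cell cannot be told apart.

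The other 16 mRNAs lay within the rule. Sephs2, the enzyme that makes the selenium donor for selenocysteine, had the most positive value, log2 0.41, at 847 and 638 RPKM. Gpx4, the peroxidase that acts on lipid hydroperoxides in membranes, followed with log2 0.36, at 161 and 126 RPKM. Sepp1, the carrier that liver secretes to supply other tissues with selenium, was the most abundant of the mRNAs in both libraries, with 2003 and 2630 RPKM and log2 -0.39. Dio1, which activates thyroid hormone, was at 77.6 and 76.8 RPKM, and Sepx1, which reduces oxidised methionine, at 476 and 518 RPKM.

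**Figure D1:**
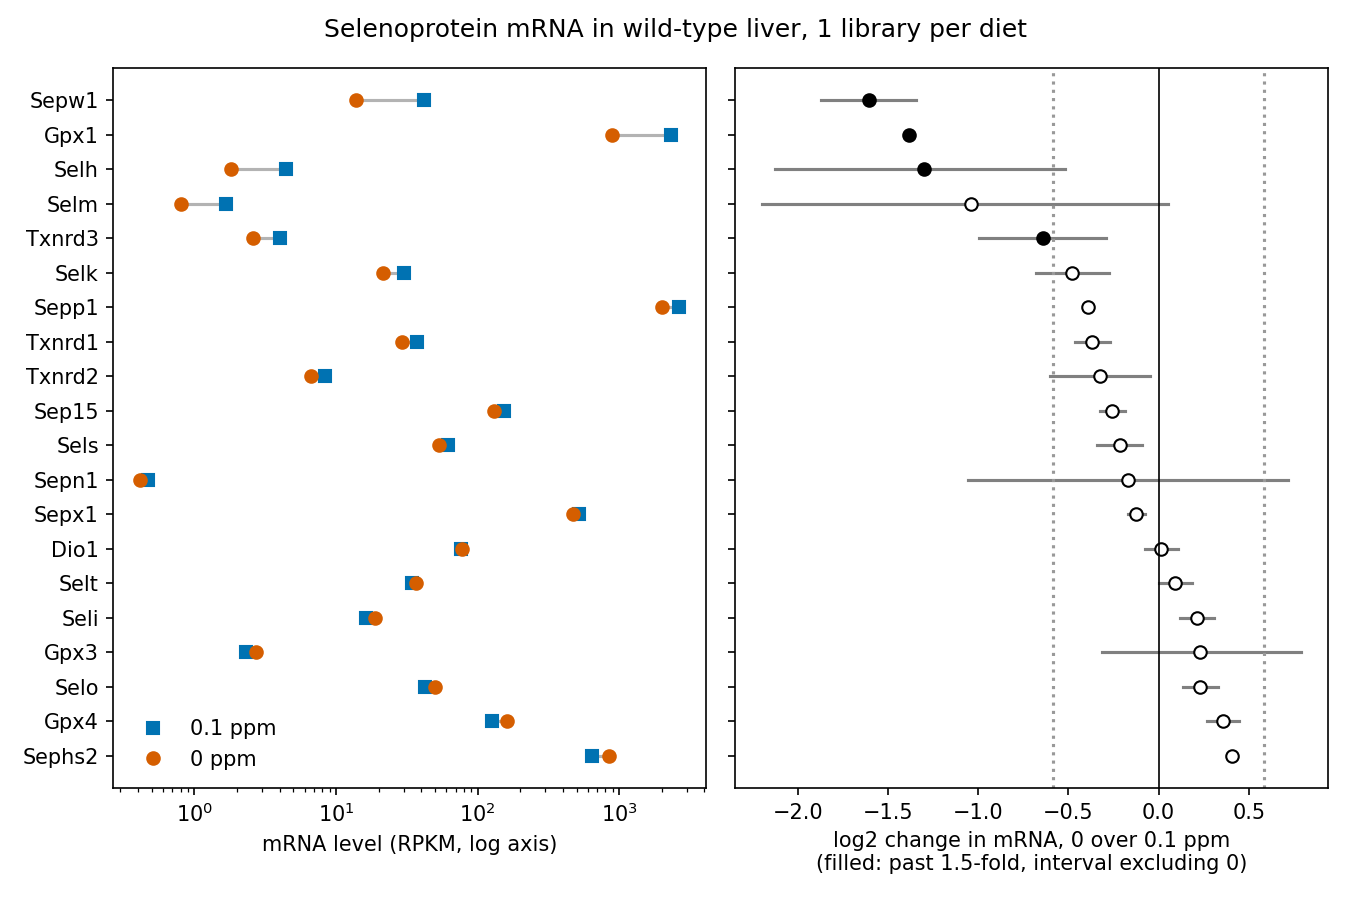
Left, mRNA level of the 20 genes compared (RPKM, log axis) in wild-type liver at 0 ppm (circles) and 0.1 ppm selenium (squares), 1 library each. Right, log2 change with its 95% counting interval, where filled points mark the 4 lower genes (Sepw1, Gpx1, Selh, Txnrd3) and dotted lines mark 1.5-fold.

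Footprints 5' of the UGA count ribosomes before the codon is met. They were lower at 0 ppm for 6 of 19 genes (31.6%) and higher for none, with a median log2 change of -0.25. Gpx1 was at 359 and 946 RPFKM, 2.63-fold lower, a difference close to that of its mRNA. Sepp1 was at 1288 and 1952 RPFKM, 1.52-fold lower (95% interval 1.45 to 1.58), which is just past the rule. Scaling to the median gene (log2 -0.35) ended this call. Selk, which sits in the membrane of the endoplasmic reticulum, was at 5.10 and 11.3 RPFKM, 2.22-fold lower, from 26 and 73 reads. Among these 6 genes only Gpx1 and Txnrd3 were also lower in mRNA. Selk mRNA was at 21.6 and 30.05 RPKM, within the rule.

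The thioredoxin reductases, which keep thioredoxin reduced and carry selenocysteine next to their last residue, made up the other members of this group. All 3 were lower 5' of the UGA. Txnrd1, the cytosolic form, was at 28.7 and 61.7 RPFKM, 2.15-fold lower, and its mRNA at 29.1 and 37.5 RPKM. The mitochondrial Txnrd2 was at 7.58 and 13.8 RPFKM, 1.82-fold lower, and its mRNA at 6.63 and 8.31 RPKM. Txnrd3 was at 1.503 and 3.790 RPFKM, 2.52-fold lower. Divided by mRNA, 5' footprints were lower for Txnrd1 (0.988 and 1.65, 1.67-fold, interval 1.51 to 1.84) and Txnrd3 (0.584 and 0.943, 1.62-fold, 1.11 to 2.36). No other gene passed the rule in that measure, which makes 2 of 19 (10.5%), and Txnrd2 lay at 1.45-fold (1.14 to 1.85). Over the mRNA of the 5' window alone the count was 3 of 16 (18.8%), and these were the 3 thioredoxin reductases, at 1.52- to 1.66-fold. Selt (2.03-fold, 0.96 to 4.40) and Selk (1.76-fold, 0.998 to 3.15) had larger folds there. They hold fewer reads and were not called, as their intervals include 1. The calls therefore do not show that the change is particular to the reductases. As the UGA of the reductases ends the coding sequence, nothing can be read from these tables on whether ribosomes passed it.

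Sepx1, Dio1, Gpx4 and Sephs2 had 5' footprints close to or above those at 0.1 ppm. Sepx1 was at 478 and 472 RPFKM and Dio1 at 57.9 and 57.3. Gpx4 was at 506 and 456 RPFKM and Sephs2 at 220 and 175, with log2 values of 0.15 and 0.33 within the rule. None of these 4 genes was lower on the 5' side.

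Past the UGA the order was different. Footprints 3' of it were lower for 10 of 13 genes (76.9%) and higher for none, with a median log2 change of -1.09. Of these 10 genes, 7 were within the rule in mRNA, and Gpx1, Selh and Sepw1 were lower in both. Gpx1 fell furthest among the genes with many reads, from 890 to 70.6 RPFKM, 12.6-fold (95% interval 11.7 to 13.6). Sepw1 was at 2.74 against 20.1 RPFKM, 7.34-fold lower (4.22 to 13.8), and Sepx1 at 28.7 against 176 RPFKM, 6.14-fold lower (4.309 to 9.002). Selh had 1 read against 27, so that its ratio of 21.3 has an interval from 3.52 to 874. Its 5' footprints, 1.64 and 5.82 RPFKM, come from 2 and 9 reads and were not called.

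Sepp1 and Sephs2, which serve selenium transport and donor synthesis, were among the 10 of 13 genes (76.9%) that were lower here. Sepp1 was at 215 against 714 RPFKM, 3.32-fold lower (3.21 to 3.42), over a window that holds its further UGA codons. Sephs2 was at 74.3 against 155 RPFKM, 2.09-fold lower (1.98 to 2.20), although its mRNA and 5' footprints lay above those at 0.1 ppm. Sep15, a thioredoxin-fold protein of the endoplasmic reticulum lumen, was at 69.4 against 201 RPFKM, 2.89-fold lower (2.55 to 3.28). Its mRNA (129.6 and 154.8 RPKM) and its 5' footprints (109.6 and 123.2 RPFKM) were within the rule.

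The last 3 of the 10 were near 2-fold. Dio1 was at 10.2 against 21.7 RPFKM (2.12-fold, 1.67 to 2.73). Gpx4 was at 38.6 against 81.5 RPFKM (2.11-fold, 1.858 to 2.4). Selt, another thioredoxin-fold protein of the endoplasmic reticulum, was at 9.71 against 19.0 RPFKM (1.956-fold, 1.54 to 2.50). Its mRNA (36.6 and 34.3 RPKM) and 5' footprints (43.3 and 51.5 RPFKM) were within the rule. Processed copies of Gpx4, Selt and Selk are named in GENCODE, and the sources used here do not say how reads with several matches were handled, so the values of these genes are uncertain.

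Seli, an ethanolamine phosphotransferase of phospholipid synthesis, was within the rule 3' of the UGA, at 53.4 and 56.8 RPFKM. The plasma peroxidase Gpx3 and the endoplasmic reticulum protein Selm were not called either. Gpx3 had 20 and 18 reads 3' of the UGA and Selm 8 and 6, so that their log2 values of 0.49 and 0.75 have intervals that include 0.

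**Figure D2:**
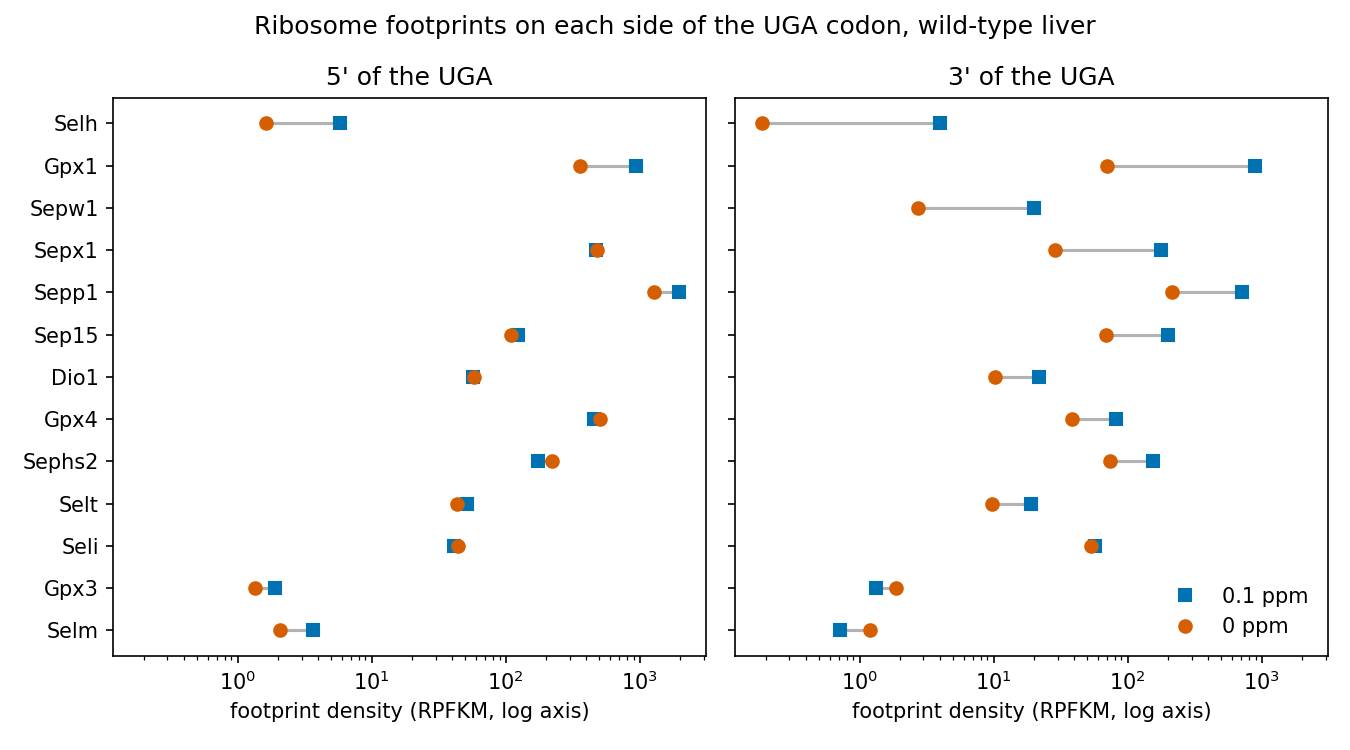
Footprint density (RPFKM, log axes) 5' (left) and 3' (right) of the UGA at 0 ppm (circles) and 0.1 ppm selenium (squares), 1 library each, for the 13 genes compared 3' of it; Sepw1 has no 5' window. The circles and squares of Sepx1, Dio1 and Gpx4 lie close together on the left and apart on the right.

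The listed genes together held 655 footprint reads per 1000000 mapped reads 5' of the UGA at 0 ppm and 834 at 0.1 ppm. On the 3' side they held 362 and 1359, and in mRNA 8393 and 10811 reads per 1000000 mapped reads. The totals of both sides cover different genes. Txnrd1, Txnrd2, Txnrd3, Selk, Sels and Selo enter the 5' total only, and Sepw1 the 3' total only. The makeup of the 3' footprints differed too. Gpx1 gave 8.78% of them at 0 ppm and 29.5% at 0.1 ppm, while Sepp1 gave 56.5% and 49.9% and Sephs2 23.7% and 13.2%. These shares move together by construction.

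The 3'/5' ratio compares both sides of the UGA in the same library, so that no scaling between libraries enters it. It was lower at 0 ppm for 8 of 12 genes (66.7%) and higher for none, with a median log2 change of -1.18. Sepx1 was first, with a ratio of 0.0600 at 0 ppm and 0.373 at 0.1 ppm, 6.22-fold lower (4.36 to 8.88). Gpx1 was next, with 0.1966 and 0.9402, 4.78-fold lower (4.27 to 5.36). The intervals of these 2 genes overlap each other and lie above those of the other 6.

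Those 6 genes lay between 1.64- and 2.62-fold. Sephs2 had ratios of 0.338 and 0.886 (2.62-fold, 2.33 to 2.95), and Sep15 had 0.633 and 1.63 (2.57-fold, 2.19 to 3.03). Gpx4 had 0.0764 and 0.179 (2.34-fold, 2.03 to 2.69), and Sepp1 had 0.167 and 0.366 (2.19-fold, 2.08 to 2.30). Dio1 had 0.176 and 0.378 (2.15-fold, 1.63 to 2.84), and Selt had 0.224 and 0.369 (1.64-fold, 1.13 to 2.39). Neighbours in this order overlap in their intervals, so that their ranks are not resolved by counting alone. Ratios at 0.1 ppm ranged from 0.179 in Gpx4 to 1.63 in Sep15 among the 8.

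Selh, Seli, Gpx3 and Selm were not called. Seli had 1.21 and 1.38 (log2 -0.19, interval -0.98 to 0.60). The other 3 had 5 or fewer 5' reads at 0 ppm, and their log2 values of -2.58, 1.00 and 1.58 have intervals that include 0.

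Total mRNA over the same windows gives a ratio that no ribosome makes. It was lower for 0 of 9 genes (0%), with a median log2 change of -0.23 and 8 of 9 values below 0. Sepx1 was at log2 -0.34 (-0.48 to -0.20) and Seli, from 24 and 31 reads on the 3' side, at -0.77 (-1.62 to 0.07). After division by this mRNA ratio, 7 of the 8 genes stayed lower, between log2 -0.97 (Dio1) and -2.30 (Sepx1). Selt was at -0.23 (-1.31 to 0.85) and no longer passed, with 28 and 14 mRNA reads in its 5' window.

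The change in 3' footprints is, on the log2 scale, the sum of the changes in mRNA, in 5' footprints per mRNA, and in the 3'/5' ratio. This sets transcript loss and loss of UGA passage on the same scale. In 10 of the 12 genes with all terms the ratio term was more negative than the mRNA term, the exceptions being Gpx3 and Selm, which hold few reads. With both terms taken relative to their medians, an alternative chosen after seeing the data, the count was 6 of 12, and Gpx1, Sepp1, Selt and Seli no longer qualified. Among the 10, the ratio's interval includes 0 for Selh and Seli.

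In Gpx1 both terms were lowered, mRNA by log2 -1.38 and the ratio by -2.26, and 5' footprints per mRNA stood at -0.01. The mRNA term makes up 37.8% of its log2 change in 3' footprints and the ratio term 61.8%. In Sepp1 these shares were 22.8% and 65.3%, the rest being 5' footprints per mRNA. In Sep15 the shares were 16.7% and 89.0%, while 5' footprints per mRNA, at log2 0.09, went the other way. Sepx1 had -0.12 for mRNA and -2.64 for the ratio, so that its change in 3' footprints, -2.62, came almost whole from the ratio term. Dio1 had 0.01 for mRNA, 0.00 for 5' footprints per mRNA and -1.10 for the ratio. Gpx4 (0.36 and -1.23) and Sephs2 (0.41 and -1.39) had mRNA terms above 0 and ratio terms below it. Selh had -1.30 for mRNA and -2.58 for the ratio, the latter from 1 read.

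**Figure D3:**
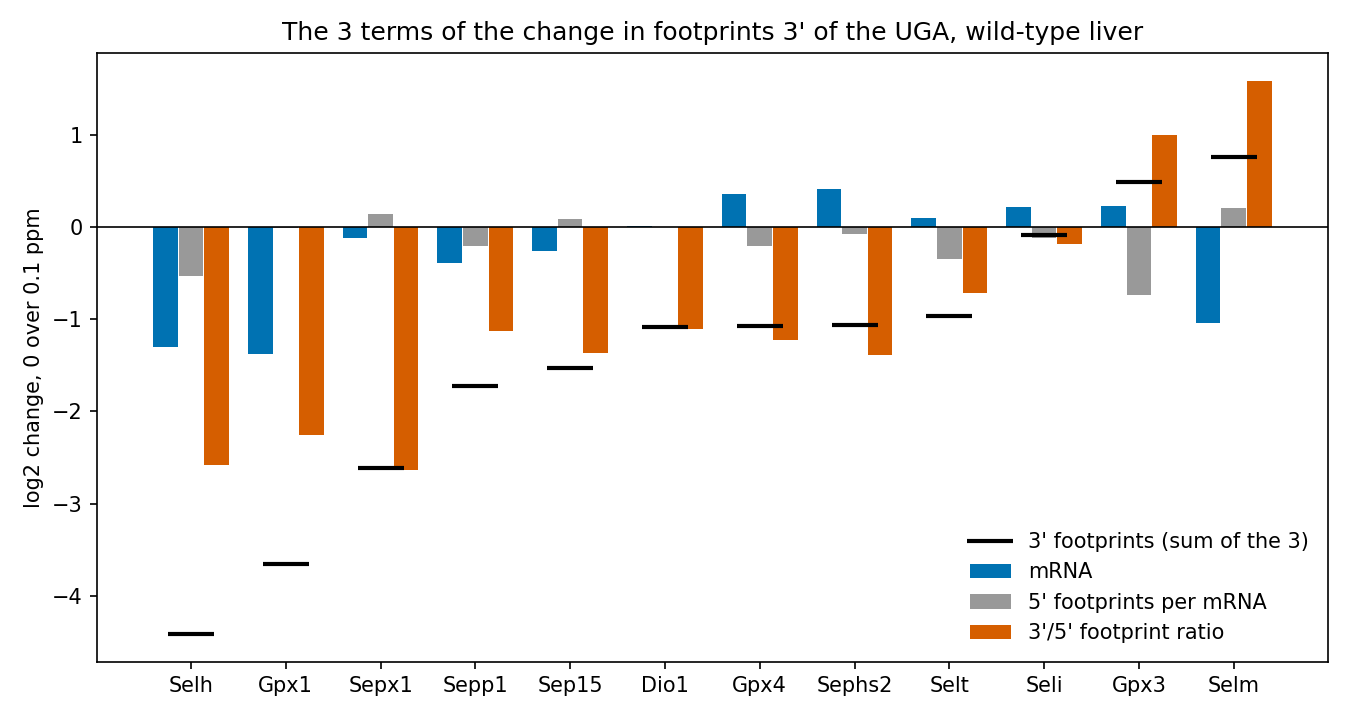
The log2 change from 0.1 to 0 ppm in mRNA (blue), 5' footprints per mRNA (grey) and the 3'/5' footprint ratio (orange) for the 12 genes with all terms, and in 3' footprints (black line), which is their sum. The orange bar is the lowest in 10 genes, while blue bars are long in Selh, Gpx1 and Selm alone; Selh, Gpx3 and Selm rest on few reads.

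**Figure D4:**
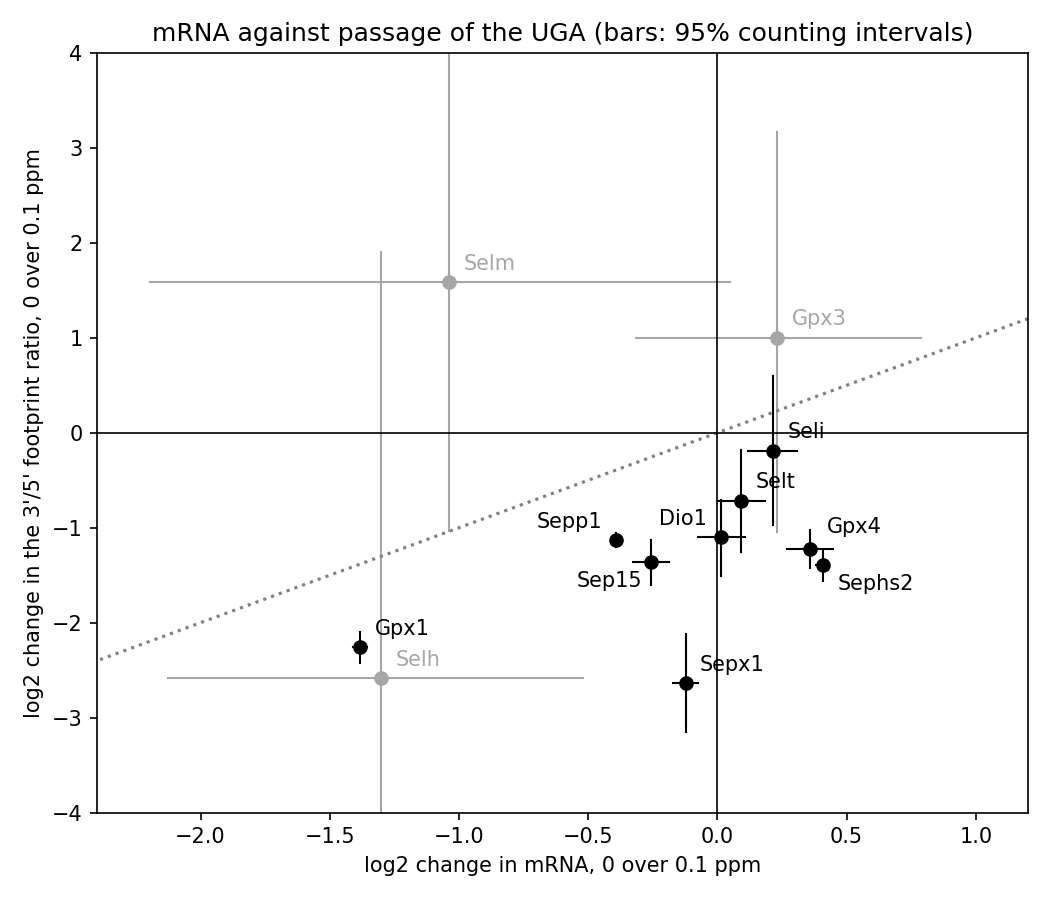
Log2 change in mRNA against log2 change in the 3'/5' footprint ratio, 0 over 0.1 ppm, 1 library per diet, with 95% counting intervals; grey marks ratio intervals wider than 2 log2 units, some of which run past the axis. On the dotted line both changes are equal, and 10 of 12 genes lie below it.

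Sepw1 has no 5' window and so no ratio. Its 3' footprints per mRNA stood at 0.199 and 0.481, 2.41-fold lower (1.34 to 4.66), beside an mRNA that was 3.04-fold lower. In this measure, 3' footprints per mRNA, 10 of 13 genes were lower (76.9%), with a median of log2 -1.28, and over the mRNA of the 3' window alone 9 of 13 (69.2%). Sepx1 was lowest among those with many reads, at 0.0602 and 0.340 (5.64-fold), followed by Gpx1 at 0.0791 and 0.382 (4.83-fold).

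Between the windows lie 18 nt at the UGA, whose placement was inferred from the window lengths and could be off by about a codon. In Gpx1 they held 88.6% of the coding-sequence footprints at 0 ppm and 69.7% at 0.1 ppm, over 3.30% of the window. The density there was 25700 and 60498 RPFKM, 2.35-fold lower (2.304 to 2.405), against 12.6-fold 3' of it and 2.63-fold 5' of it. In Sepx1 the 18 nt held 36.8% and 47.3% of footprints, with a density 1.63-fold lower (1.53 to 1.74). In Selh they held 76.9% and 55%, from only 10 of 13 and 44 of 80 reads. The Selh density there was 3.48-fold lower (1.72 to 7.75). mRNA reads were also dense there, with 18.2% and 22.6% of the Gpx1 reads and 23.2% and 24.1% of the Sepx1 reads, and the part of this in the footprint values was not tested. In Dio1, Gpx4, Seli, Selt, Sep15, Sephs2 and Sepp1 the density in the 18 nt was within the rule.

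**Figure D5:**
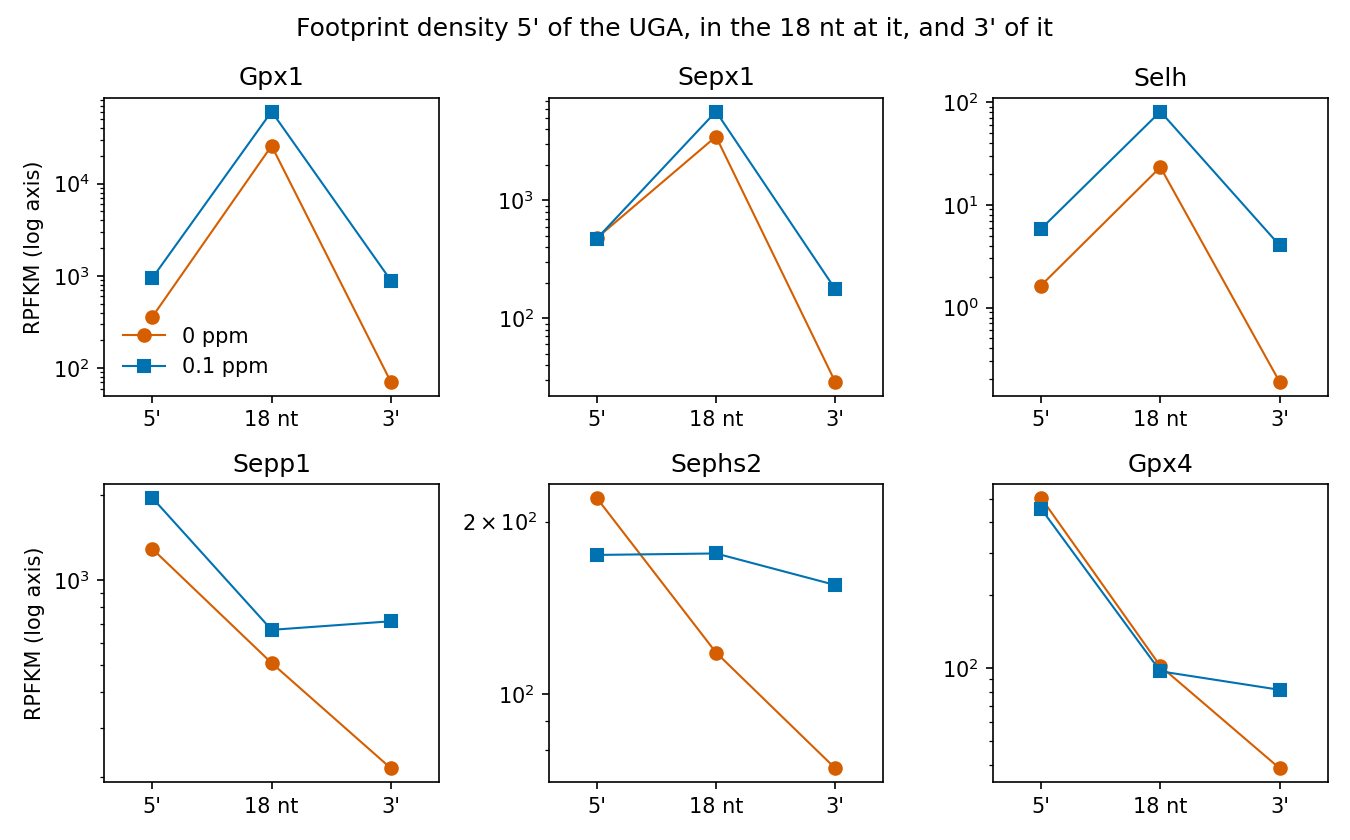
Footprint density (RPFKM, log axes that differ between panels) 5' of the UGA, in the 18 nt at it and 3' of it, at 0 ppm (circles) and 0.1 ppm selenium (squares), 1 library each. In Gpx1, Sepx1 and Selh density is highest in the 18 nt on both diets, and in all 6 panels the 0 ppm line ends below the 0.1 ppm line.

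Footprints over the whole coding window join these regions, except in Sepw1. Its 3' window, at 213 nt, is longer than its coding window, at 207 nt, and holds more reads. Footprints over the coding window were lower for 11 of 20 genes (55%), with a median of log2 -0.73. Without the 18 nt the same 11 genes were lower, and Gpx1 moved from log2 -1.58 to -2.99. For Selk, Txnrd1, Txnrd2 and Txnrd3 this used the 5' window alone, and for Sepw1 the 3' window alone. The calls of these genes therefore repeat those of that window. Dio1, Gpx4 and Sepx1 were lower 3' of the UGA but within the rule over the whole window (log2 -0.20, -0.11 and -0.34), where the 5' side and the 18 nt hold most of their footprints. For these genes the whole-window value shows a smaller change than the 3' side.

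Groupings of selenoproteins, chosen with earlier results of these data known, were set side by side. The membership of each list was set for this comparison. Of the genes listed here as stress-related (Gpx1, Gpx3, Selh, Sepw1, Sepx1, Selk and Dio1), 3 of 7 were lower in mRNA (median log2 -0.48). On the 3' side 5 of the 6 compared were lower (median -2.75), and in the 3'/5' ratio 3 of 5 (-2.26). Of those listed here as housekeeping (Gpx4, Txnrd1, Txnrd2, Sep15, Sepp1 and Selt), 0 of 6 were lower in mRNA (-0.29). On the 3' side all 4 compared were lower (-1.30), and in the ratio also all 4 (-1.18). Over all genes compared, the medians were -0.24, -1.09 and -1.18, and the shares called were 20%, 76.9% and 66.7%. With so few genes in each list, 1 gene more or less moves its share widely. The folds of both groups overlap, with Sepp1 and Sep15 past Dio1 on the 3' side, and the difference between the groups was not tested. Of the 7 endoplasmic reticulum genes, 0 were lower in mRNA (-0.22), and 2 of the 4 compared were lower in the ratio.

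The wild-type libraries at 2.0 ppm, which the comparison did not use, give further values. They are a description, since the 0 ppm libraries would be the same ones. The Sepx1 ratio was 0.376 at 2.0 ppm, close to the 0.373 at 0.1 ppm. The Gpx1 ratio was 0.477 at 2.0 ppm, between 0.1966 and 0.9402, with 5' footprints of 2316 RPFKM there against 946 at 0.1 ppm. Gpx1 3' footprints were at 1105 RPFKM at 2.0 ppm.

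The same contrast of diets in TrspA37G liver, with its own libraries, shows where the wild-type values differ. In the ratio, 8 wild-type and 7 TrspA37G genes of the 10 compared in both were lower, 7 of them in both genotypes. Sepp1 was the gene lower in wild type alone, with log2 -1.13 against -0.17, a difference of -0.96 (counting interval -1.08 to -0.85). Of the 10 differences, 4 had intervals below 0 and 1 above it. The ratio of Sepx1 was lowered more in wild type by log2 -1.61 (-2.35 to -0.88) and that of Gpx1 by -1.03 (-1.38 to -0.67). In TrspA37G the Sepx1 3' footprints, 41.4 RPFKM at 0 ppm and 40.1 at 0.1 ppm, were not called (log2 0.05, -0.49 to 0.58). Its 5' footprints there were higher at 0 ppm, at 228 against 109 RPFKM (log2 1.07). The lower Sepx1 ratio in TrspA37G thus came from the 5' side. Seli was at -0.19 in wild type and 1.27 in TrspA37G, a difference of -1.46 (-2.36 to -0.56). Selt, lowered more in TrspA37G, was at -0.72 and -1.68, a difference of 0.96 (0.11 to 1.82). In 3' footprints, 6 of 11 differences had intervals above 0, the change being more negative in TrspA37G, and 3 below it. In 5' footprints, 4 of 18 differences had intervals below 0 and 6 above it. Txnrd1 was at log2 -1.10 in wild type and -0.37 in TrspA37G, and Txnrd2 at -0.87 and 0.26. Neither was called in TrspA37G, while Txnrd3, at -1.33 and -1.11, was lower in both. In mRNA the widest gap was Dio1, at log2 0.01 in wild type and -2.23 in TrspA37G. With 1 library per group, these differences were not tested across mice.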

How the data were processed

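Ribosome footprints and total mRNA of mouse liver were compared between 0 and 0.1 ppm selenium in wild type, 1 library per group. Per the labels' protocols, livers were frozen and homogenised with cycloheximide, and an RNase was used to make the footprints, taken from monosomes. Per the submitters' processing notes, reads were mapped with Bowtie to mm9; the sources used here do not give versions, trimming or the treatment of reads with several matches. Per the file headers, the authors deposited RPKM values for mRNA and the matching RPFKM values for footprints, over the whole mRNA, over the coding sequence without its first 15 and last 3 codons, and on each side of the UGA. RPKM values share 1 total per library, so large differences in a few RNAs move all others.

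Whole reads were recovered from the deposited values with 1 number of mapped reads per library. All 795 values above 0 gave whole reads within 0.001. For 641 the region length came from annotated codons (GENCODE M21, GRCm38) and for 154 it was fitted. For whole mRNAs this was the length nearest to the annotated transcript that gave whole reads. For the mRNAs of Dio3, Selh, Selk, Selm and Selt it was the smallest such length not under the coding sequence, and for the coding windows of Txnrd3 the smallest, so that those reads are the fewest possible. The coding window was 60 nt shorter than the annotated coding sequence with its stop codon. At that length 95.3% of coding-sequence values were whole, against 12.0% at the best other length. For 22 of 23 genes the window matched annotated codons; Txnrd3 was fitted.

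Ratios are of the deposited values, with no pseudocount. Intervals (95%) are exact conditional ones (Clopper-Pearson, or the conditional odds ratio up to 2000 reads and a log-normal form above). They were tested on simulated reads with independent counting error alone, the error they assume. That test cannot show how they hold in these libraries. Only counting error is in the intervals, and reads without molecular identifiers need not be independent molecules. Python 3.11.15, scipy 1.17.1, numpy 2.4.6 and matplotlib 3.10.9 were used. All 23 genes are accounted for; values in both libraries are given for genes called in mRNA, in 5' or 3' footprints or in the 3'/5' ratio, and for Gpx4, Sephs2, Sepp1 and Dio1. The genes, lists and rules were chosen with earlier results of these data known. Alternatives were scaling to the median gene, read minimums of 30 and 1, a 2-fold rule, and other mRNA and footprint regions. Other cell types of the liver were not analysed here, as the tables hold selenoprotein genes alone.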

Additional observations from a re-analysis of the deposited data

Results flagged for a closer look

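For 6 values the change from 0.1 to 0 ppm went in opposite directions in wild-type and TrspA37G liver, with each counting interval excluding 0. In mRNA, Seli was at log2 0.21 in wild type and -0.97 in TrspA37G, a difference of 1.19. Sephs2 mRNA was at 0.41 and -0.16 (difference 0.57), Selt mRNA at 0.09 and -0.45 (0.54), and Selo mRNA at 0.23 and -0.14 (0.37). Sepx1 mRNA went the other way, at -0.12 and 0.14 (-0.27). In footprints 5' of the UGA, Gpx4 was at 0.15 and -0.44 (0.59). Of these values only the Seli mRNA in TrspA37G passed 1.5-fold. None of the differences was tested across mice, as each group has 1 library. Processed copies of Gpx4 and Selt are named in GENCODE, which leaves their values uncertain.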

How the results depend on the processing

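No paired analysis was possible because each group has 1 library, and for the same reason no replicate could be left out. Dividing each ratio by the median gene moved most results, by construction, since the medians lay below 0. It left 5 genes lower in 3' footprints (Gpx1, Selh, Sepp1, Sepw1, Sepx1) with 3 higher, 5 lower over the coding sequence with 5 higher, 2 lower in the 3'/5' ratio (Gpx1, Sepx1) with 3 higher, 0 in 5' footprints per mRNA and 2 in 3' footprints per mRNA with 3 higher. In 5' footprints it left 5 of 6, without Sepp1. In mRNA it left Gpx1, Selh and Sepw1 lower and made Gpx4 and Sephs2 higher. It turned the sign in 3' footprints of Gpx4 (log2 0.00996), Selt (0.12) and Sephs2 (0.0263), over the coding sequence of Selt (0.0769), in the ratio of Dio1 (0.0751), Selt (0.46) and Sepp1 (0.0481), and in 3' footprints per mRNA of Dio1 (0.17), Selt (0.21) and Sepw1 (0.00585). The 3'/5' ratio needs no scaling between libraries, so for it this setting shows rank alone. A 2-fold rule left 4 genes lower in 5' footprints, 7 over the coding sequence and 0 in 5' footprints per mRNA. The count of genes with the ratio more lowered than mRNA stayed at 10 of 12 with coding-sequence RPKM and was 9 of 9 with at least 30 reads. Scaling mRNA alone can only keep or add genes, and scaling both terms, chosen after seeing the data, left 6. A read minimum only sets which genes are compared and cannot change the value of a gene that stays. With at least 30 reads Selh left the 3' comparisons. This left 9 genes lower in 3' footprints and 9 in 3' footprints per mRNA. Depth limits Selh, Gpx3 and Selm most, whose ratio rests on few reads on each side.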

Other observations

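Position of the UGA against the last exon junction was read from the annotation after values were known. Of 13 genes compared whose UGA lies at least 50 nt before that junction, 3 were lower in mRNA (Gpx1, Selh, Sepw1), with a median log2 change of -0.26. Of 7 genes whose UGA lies in the last exon or closer to the junction, 1 was lower (Txnrd3), with a median of -0.22. Both counts lie near the 20% called over all 20 genes. Both groups span genes above and below 0, up to 0.36 (Gpx4) and 0.41 (Sephs2).

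The base after the UGA, grouped in the same way, was G in 12 of the 23 genes, C in 6, A in 3 and T in 2. The 3'/5' ratio was compared in 12 genes, of which 8 (66.7%) were lower. With G, 4 of the 5 compared were lower (Gpx1, Gpx4, Selt, Sephs2), and with A 2 of 2 (Sep15, Sepx1). With C, 1 of 4 was lower (Dio1), and with T 1 of 1 (Sepp1). So few genes per base give no reliable rate. Among the 8 lower genes, those with the largest and the smallest change, Sepx1 and Selt, have A and G there.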
